A study of Arabidopsis thaliana with 12 samples.

Results

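The regulators of flavonoid synthesis are a set of 10 transcription factor and partner genes, taken by their loci out of the 36917 loci of the deposited table. They were followed in RNA from whole Arabidopsis thaliana plants, with 3 libraries for each of 4 genotypes. These were djc31 (insertion line SALK_034886), djc62 (SALK_050913), the djc31 djc62 double mutant of both lines, and wild type of the accession Col-0. Each single mutant stands on 1 insertion line, and other alleles or complemented lines were not analysed here. DJC31 and DJC62 are co-chaperones with a J domain and tetratricopeptide repeats. Soil-grown plants were taken at the 4-leaf stage from days of 16 h light and 8 h dark, and no stress treatment is named. The sources used here name neither the hour of harvest nor separate sowings for the replicates. The p-values then measure only how far these samples spread, and that spread may be technical.

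Flavonoids are phenolic pigments and sunscreens that leaves make from phenylalanine. In Arabidopsis, the MYB factors MYB11, MYB12 and MYB111 switch on the early enzymes that lead to flavonols, and they act without a partner of the bHLH class. The late enzymes that lead to red anthocyanins need a complex of a MYB such as PAP1 or PAP2, a bHLH factor such as TT8, GL3 or EGL3, and the WD-repeat protein TTG1. MYBL2 is a small MYB protein that binds the bHLH partners and represses the late genes. GL3, EGL3 and TTG1 also work in the making of leaf hairs.

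Levels are in normalised read counts, and where they are means they stand with their SD over 3 libraries. Tests are by limma, with p-values adjusted by Benjamini-Hochberg over all 19975 loci tested. A call means an adjusted p under 0.05. Log2 changes are on the log2(value + 1) scale, are given with their standard error (SE), and understate the change of low genes. The libraries held 13.6 to 31.1 M reads, with the lowest depth in djc31 replicate 2, and 3 reads correspond to 2.23 to 6.45 normalised reads. DJC31 was at 115 ± 30.8 in djc31 and 47.5 ± 7.79 in the double mutant, against 726.7 ± 49.3 in wild type. DJC62 was at 161.1 ± 50 in djc62 and 75.7 ± 17.6 in the double mutant, against 516.2 ± 76.1 in wild type. Wild type stood apart from all mutants in ways outside the pathway. At 34 loci wild type had next to no reads while every mutant library reached at least 50, and the nearest of these loci to a regulator lay 254 loci away in the order of locus numbers, from GL3. The clock gene LHY, a dawn factor, was at 1178 ± 84.7 in djc31, 2399 ± 261 in djc62 and 1705 ± 234 in djc31 djc62, against 3984 ± 298 in wild type. PRR5, an evening clock repressor, was at 112.7 ± 34.5, 96.5 ± 20.3 and 25.7 ± 14.1 in djc31, djc62 and the double mutant, against 6.56 ± 4.48 in wild type. The part of these differences in the results on the regulators was not tested.

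**Figure D1:**
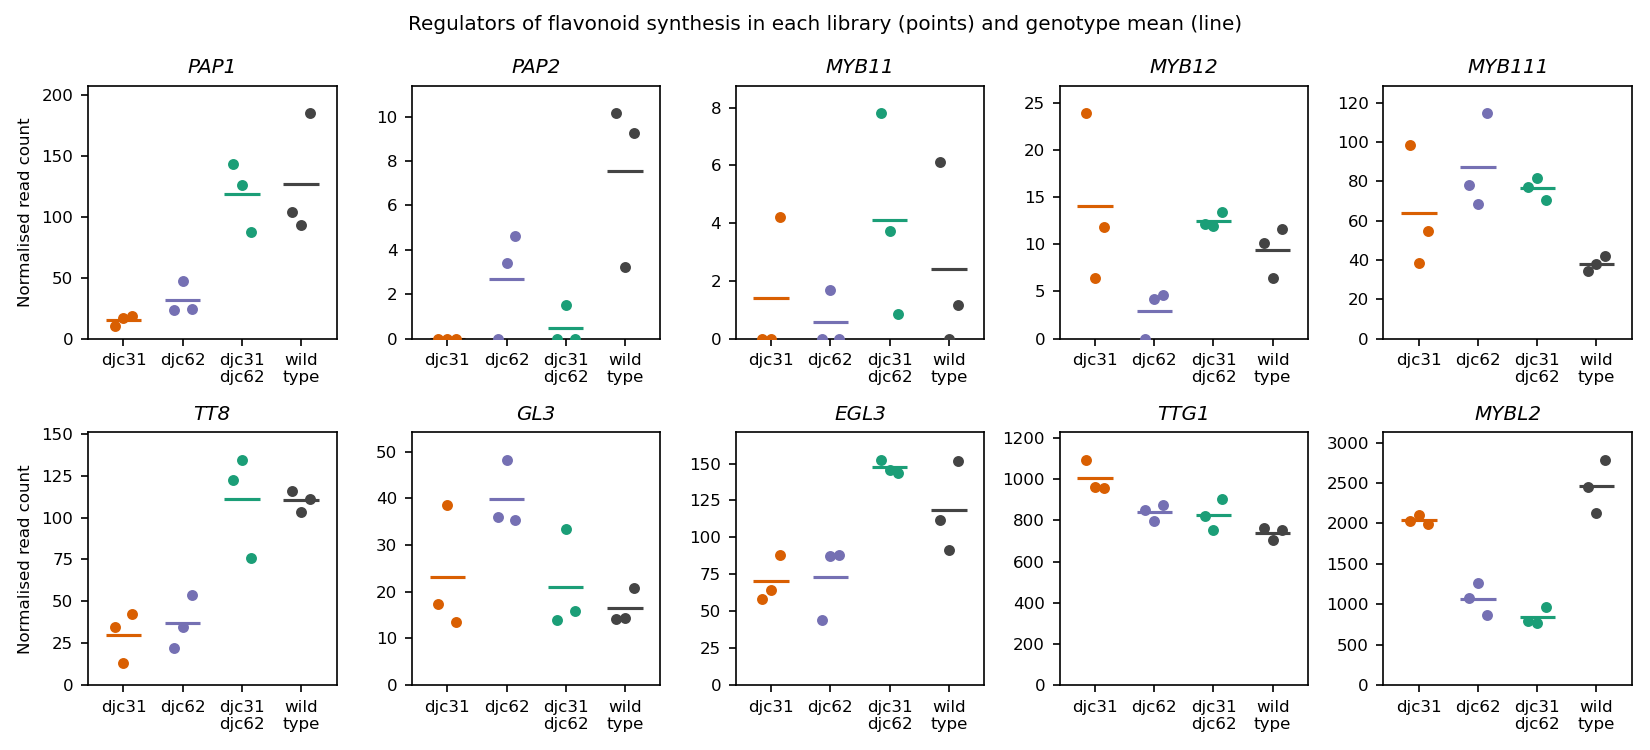
Normalised read count (y axis, linear, from 0) of the 10 regulators in each of the 12 libraries, by genotype. Points are libraries and lines are genotype means (n = 3); the scale differs between panels. PAP1 and TT8 sit low in djc31 and djc62 and at a similar level in the double mutant and wild type, while MYBL2 sits low in djc62 and the double mutant.

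The anthocyanin MYB PAP1 (AT1G56650, chromosome 1) was lower than wild type in both single mutants and was called in 4 of the 6 comparisons between genotypes. It was at 10.6, 17.2 and 18.6 in the djc31 libraries, at 23.3, 47.5 and 24.6 in djc62, at 143.2, 126.5 and 87.9 in the double mutant and at 103.7, 93.2 and 185.5 in wild type. All 6 libraries of the single mutants lay below all 6 libraries of the double mutant and wild type, and the double mutant overlapped wild type. PAP1 fell 7.63-fold in djc31 (log2 change -2.93 ± 0.36 SE, adjusted p = 8.34e-06) and 3.93-fold in djc62 (-1.98 ± 0.36 SE, adjusted p = 0.000495), both against wild type. In the double mutant the difference from wild type was -0.06 ± 0.36 on the log2 scale (adjusted p = 0.926), with a 95% interval of -0.81 to 0.7. Against the single mutants, PAP1 was 7.33-fold higher in the double mutant than in djc31 (adjusted p = 2.56e-05) and 3.78-fold higher than in djc62 (adjusted p = 0.00115). The single mutants differed by 0.96 ± 0.36 on the log2 scale, djc62 minus djc31, which did not pass the test (adjusted p = 0.0831); with values scaled to library totals it did (1.15, adjusted p = 0.041). RNA came from whole plants, so a lower value can mean fewer cells that express a gene or less RNA per cell, and these cannot be told apart.

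PAP2 (AT1G66390, chromosome 1), the closest relative of PAP1 in the set, was near the limit of detection and did not pass the filter on low values. It had 0 reads in each djc31 library, 0, 4 and 6 reads in djc62, 0, 2 and 0 in the double mutant and 10, 4 and 8 in wild type. Reads summed over libraries were thus 0 in djc31, 10 in djc62, 2 in the double mutant and 22 in wild type. With 3 reads allowed over its libraries, djc31 was at least 5.7-fold lower than wild type. Without the filter the tests against wild type gave an adjusted p of 0.00396 in djc31, 0.0114 in the double mutant and 0.145 in djc62. PAP2 is 1 of a tandem row of similar genes with MYB113 and MYB114. MYB113 had 4, 12 and 6 reads in the djc62 libraries, 2, 0 and 0 in the double mutant and 0 in each djc31 and wild-type library. MYB114 had 2 reads summed over djc31, 4 over djc62, 2 over the double mutant and 8 over wild type. How reads that match several of these genes were counted is not given, so the value of PAP2 is uncertain. In the double mutant PAP2 thus stayed at 2 reads in all while PAP1 overlapped wild type, and the difference between both genes was not tested.

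Of the flavonol activators, MYB111 (AT5G49330, chromosome 5) was higher in djc62 and the double mutant. It was at 98.2, 38.7 and 54.9 in the djc31 libraries, 78.1, 68.7 and 114.7 in djc62, 77.2, 81.9 and 70.3 in the double mutant and 34.6, 37.8 and 41.7 in wild type. The djc62 and double mutant libraries lay above all wild-type libraries, whereas 1 djc31 library, the one of lowest depth, fell inside the wild-type range. MYB111 rose 2.21-fold in djc62 (log2 change 1.15 ± 0.31 SE, adjusted p = 0.0116) and 1.99-fold in the double mutant (0.99 ± 0.31 SE, adjusted p = 0.0246), both against wild type. The rise in the double mutant was not called when any 1 of its own libraries or wild type replicate 1 or 2 was left out (adjusted p = 0.0506 to 0.0803), nor without the filter on low values (adjusted p = 0.055). That in djc62 was not called without djc62 replicate 3 (adjusted p = 0.074). In djc31 the log2 difference from wild type was 0.63 ± 0.31 (adjusted p = 0.148), and 0.94 (adjusted p = 0.0343) without djc31 replicate 2.

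MYB12 and MYB11, the other flavonol activators, had few reads. MYB12 (AT2G47460, chromosome 2) was at 23.9, 6.45 and 11.8 in the djc31 libraries, at 0, 4.24 and 4.62 in djc62, at 12.2, 11.9 and 13.4 in the double mutant and at 10.2, 6.43 and 11.6 in wild type. The djc62 libraries were the lowest, and MYB12 passed the filter on low values only through libraries of the other genotypes. Its tests that involve djc62 are therefore given as a description. The double mutant was 4.36-fold higher than djc62 (log2 change 2.12 ± 0.72 SE, adjusted p = 0.0475). That call was lost under 13 of the alternative settings, with an adjusted p of up to 0.201 without djc62 replicate 1, the library at 0. No other comparison called MYB12, although djc62 against djc31 came to an adjusted p of 0.0608 (0.0338 with DESeq2) and djc62 against wild type to 0.0905. MYB11 (AT3G62610, chromosome 3) had 5 reads summed over the djc31 libraries, 2 over djc62, 15 over the double mutant and 7 over wild type, and did not pass the filter. Without it, no comparison called MYB11 (adjusted p = 0.228 to 0.899).

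Among the bHLH partners, TT8 (AT4G09820, chromosome 4) followed the same course as PAP1. It was at 34.5, 12.9 and 42.3 in the djc31 libraries, at 22.1, 34.8 and 53.9 in djc62, at 122.4, 134.7 and 76.1 in the double mutant and at 115.9, 103.6 and 111.3 in wild type. Again the single-mutant libraries all lay below those of the double mutant and wild type. TT8 fell 4.01-fold in djc31 (log2 change -2.0 ± 0.4 SE, adjusted p = 0.00105) and 3.12-fold in djc62 (-1.64 ± 0.4 SE, adjusted p = 0.00532) against wild type. The double mutant differed from wild type by -0.03 ± 0.4 (adjusted p = 0.966), with a 95% interval of -0.87 to 0.81. It was 3.93-fold higher than djc31 (adjusted p = 0.00148) and 3.05-fold higher than djc62 (adjusted p = 0.00859; 0.0502 without double mutant replicate 2).

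EGL3 (AT1G63650, chromosome 1), a bHLH factor of both anthocyanin synthesis and leaf hairs, was higher in the double mutant than in either single mutant and was not called against wild type in any mutant. It was at 58.4, 64.5 and 87.9 in the djc31 libraries, at 44.3, 87.3 and 87.8 in djc62, at 152.7, 145.8 and 143.9 in the double mutant and at 111.8, 91.6 and 151.9 in wild type. No single-mutant library reached the lowest wild-type library. The differences from wild type did not pass the test in djc31 (log2 difference -0.74 ± 0.28 SE, adjusted p = 0.0583) or in djc62 (-0.72 ± 0.28 SE, adjusted p = 0.0639), and 6 alternative settings called the first and 1 the second. EGL3 was 2.12-fold higher in the double mutant than in djc31 (adjusted p = 0.00743) and 2.1-fold higher than in djc62 (adjusted p = 0.0119; 0.0659 without djc62 replicate 1). Between the double mutant and wild type the log2 difference was 0.34 ± 0.28 (adjusted p = 0.381).

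GL3 (AT5G41315, chromosome 5), the relative of EGL3 best known from leaf hairs, did not take this course. It was at 17.3, 38.7 and 13.5 in the djc31 libraries, at 36.1, 48.3 and 35.4 in djc62, at 13.9, 33.5 and 15.9 in the double mutant and at 14.2, 14.5 and 20.9 in wild type. The djc62 libraries all lay above the wild-type libraries, and 1 library each of djc31 and the double mutant stood high among its own. No comparison called GL3. The log2 difference of djc62 from wild type was 1.23 ± 0.45 (adjusted p = 0.0536), which 8 alternative settings called, among them DESeq2 (adjusted p = 0.0317).

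TTG1 (AT5G24520, chromosome 5), the WD-repeat scaffold of the complex, stayed within 704.5 to 1096 over all 12 libraries. It was at 1096, 960.3 and 956.7 in the djc31 libraries, at 852.7, 797.8 and 877.2 in djc62, at 822.7, 751.5 and 903.7 in the double mutant and at 762.3, 704.5 and 754.8 in wild type. All djc31 libraries lay above every other library. TTG1 rose 1.35-fold in djc31 against wild type (log2 change 0.44 ± 0.11 SE, adjusted p = 0.00624), but not past the threshold when values were scaled to library totals (0.31, adjusted p = 0.0543). The log2 differences in djc62 and the double mutant were 0.19 ± 0.11 and 0.15 ± 0.11 (adjusted p = 0.232 and 0.317); the second was called on library totals (0.42, adjusted p = 0.00889).

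The repressor MYBL2 (AT1G71030, chromosome 1) was lower in each genotype that carried djc62. It was at 2031, 2101 and 1992 in the djc31 libraries, at 1073, 1260 and 869.5 in djc62, at 795.8, 770.1 and 969.8 in the double mutant and at 2453, 2131 and 2790 in wild type. The djc62 and double mutant libraries overlapped each other and stayed below all djc31 and wild-type libraries. MYBL2 fell 2.31-fold in djc62 (log2 change -1.21 ± 0.14 SE, adjusted p = 4.48e-06) and 2.9-fold in the double mutant (-1.54 ± 0.14 SE, adjusted p = 3.54e-07) against wild type. In djc31 the log2 difference was -0.26 ± 0.14 (adjusted p = 0.179), and -0.39 (adjusted p = 0.035) on library totals. MYBL2 was also 2.43-fold lower in the double mutant than in djc31 (adjusted p = 6.59e-06) and 1.93-fold lower in djc62 than in djc31 (adjusted p = 0.000442). The step between the double mutant and djc62 was -0.33 ± 0.14 and not called (adjusted p = 0.104).

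**Figure D2:**
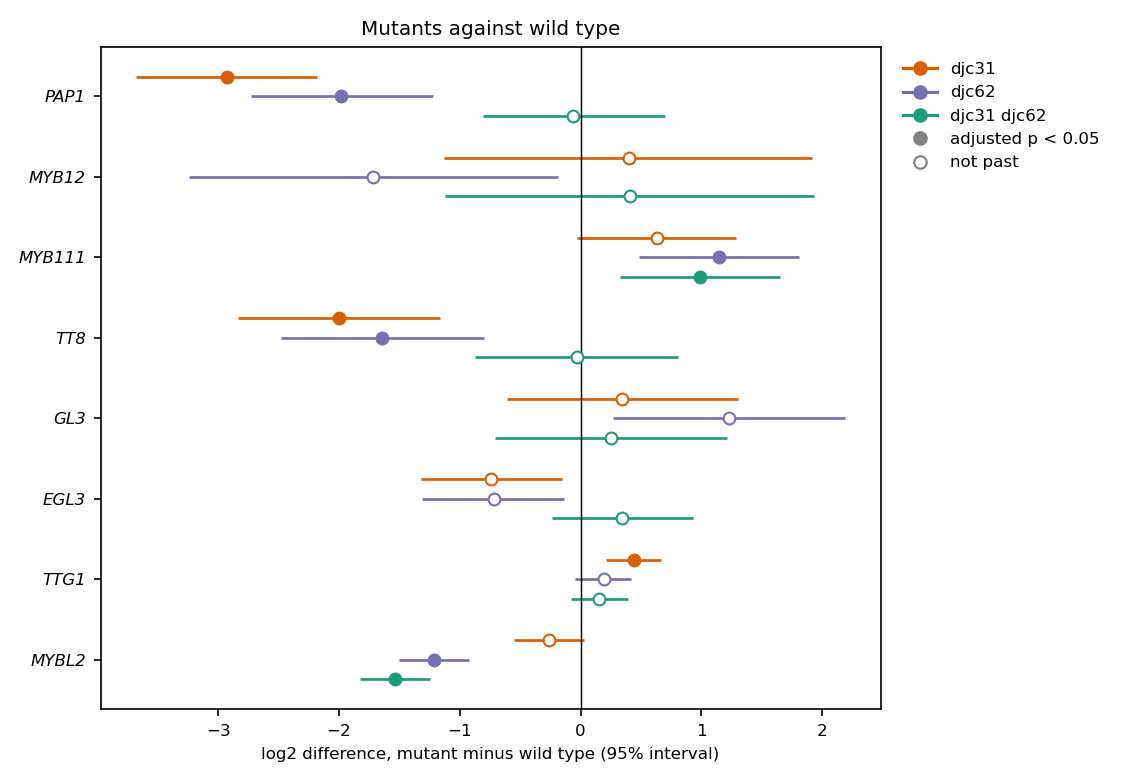
Log2 difference from wild type (x axis, mutant minus wild type) of the 8 regulators that passed the filter, with 95% intervals, for djc31, djc62 and the double mutant from top to bottom. Filled points have an adjusted p under 0.05. PAP1 and TT8 lie near 0 in the double mutant at -0.06 and -0.03, and MYBL2 is lowest there at -1.54.

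Counted over the 8 regulators tested, djc31 against wild type had 1 higher and 2 lower, where 27.5% of all loci tested were called, 13.3% higher and 14.2% lower. For djc62 the counts were 1 higher and 3 lower (26.7% of all loci, 13.7% higher and 13.0% lower), and for the double mutant 1 higher and 1 lower (29.2%, 13.8% higher and 15.5% lower). The double mutant had 3 higher and 1 lower against djc31 (31.3% of all loci, 15.3% higher and 16.0% lower) and 4 higher and 0 lower against djc62 (19.7%, 9.38% higher and 10.4% lower). The 4 include MYB12, which passed the filter on low values only through libraries of genotypes other than djc62. That call was lost under 13 of the alternative settings, and MYB12 also enters the medians below. In djc62 against djc31 only MYBL2 was called, as lower (13.8% of all loci, 7.91% higher and 5.85% lower). The median log2 change of the regulators was -0.97 in djc62 against wild type, beside 0 for all loci, and 0.52 in the double mutant against djc62, beside 0. In the other comparisons of genotypes it lay between 0.04 and 0.2, beside -0.01 to 0.03. Called loci were common throughout, so the counts are given as a description and nothing particular to the set is read from them.

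Libraries that do not overlap were also common. The libraries of djc31 and wild type did not overlap for 5 of the 8 regulators (35.7% of all loci), those of djc62 and wild type for 8 of 8 (41.6%) and those of the double mutant and wild type for 3 (48.9%). The double mutant did not overlap djc31 for 5 (45.4%) or djc62 for 5 (44.9%), and djc62 did not overlap djc31 for 4 (28.3%). Each count with djc62 includes MYB12, which passed the filter on low values only through the other genotypes.

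Whether the effects of both mutations add up was tested on the log2 scale, by taking both single-mutant changes from that of the double mutant, each against wild type. This non-additive difference was 4.85 ± 0.51 SE for PAP1 (95% interval 3.79 to 5.92, adjusted p = 1.68e-06), 3.61 ± 0.56 for TT8 (2.43 to 4.8, adjusted p = 0.000109) and 1.8 ± 0.39 for EGL3 (0.98 to 2.63, adjusted p = 0.00213). For these activators of the late genes, the double mutant was thus above the value that both single-mutant changes together give. TTG1 had -0.47 ± 0.15 (-0.8 to -0.14, adjusted p = 0.0291), a value that shrank to -0.14 on library totals (adjusted p = 0.526) and was not called without any of 6 libraries, namely wild type 2, djc31 1, djc62 1 and 3 and double mutant 1 and 2 (adjusted p = 0.0507 to 0.091). MYBL2 had -0.07 with an interval of -0.48 to 0.34 (adjusted p = 0.821), and MYB12, GL3 and MYB111 did not pass (adjusted p = 0.214, 0.128 and 0.19). In all, 3 of 8 regulators were called above and 1 below, where 31.2% of all loci were called, 15.8% above and 15.4% below. The comparisons of a mutant with wild type share the wild-type libraries, and those with the double mutant share its libraries.

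**Figure D3:**
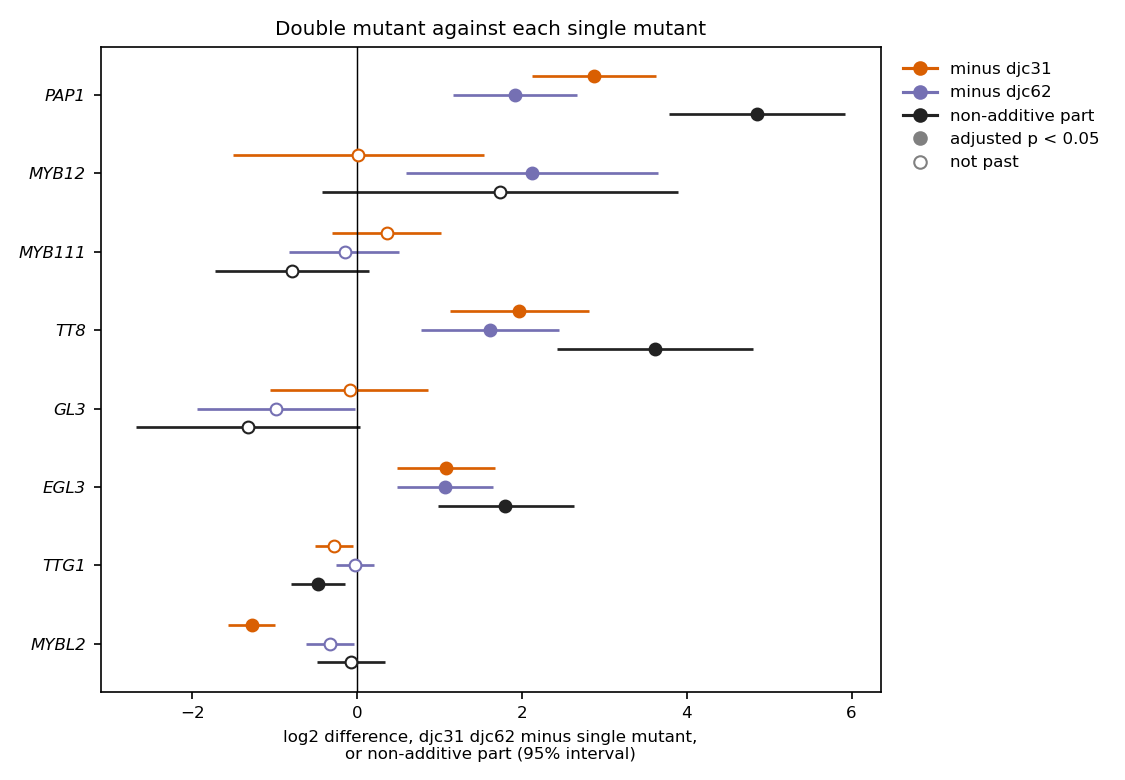
Log2 difference of the double mutant from djc31 and from djc62, and the non-additive difference (x axis), with 95% intervals, for the 8 regulators that passed the filter. Filled points have an adjusted p under 0.05. PAP1, TT8 and EGL3 lie above 0 in all of these, with non-additive differences of 4.85, 3.61 and 1.8.

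PAP1, TT8 and EGL3 were also set against MYBL2, which acts on the same complex, by reads per 1000 MYBL2 reads within each library. This ratio needs no scaling between libraries. It is not a ratio of transcript levels, since gene lengths differ. For PAP1 it was 5.23, 8.18 and 9.33 in the djc31 libraries, 21.7, 37.7 and 28.3 in djc62, 180, 164 and 90.6 in the double mutant and 42.3, 43.7 and 66.5 in wild type. For TT8 it was 17, 6.13 and 21.2 in djc31, 20.6, 27.6 and 62 in djc62, 154, 175 and 78.5 in the double mutant and 47.2, 48.6 and 39.9 in wild type. For EGL3 it was 28.8, 30.7 and 44.1 in djc31, 41.3, 69.3 and 101 in djc62, 192, 189 and 148 in the double mutant and 45.6, 43 and 54.4 in wild type. In each of these genes, every double mutant library lay above every library of the other genotypes. The share of all loci with such a ratio was not computed, so nothing particular to these genes is read from it. MYBL2 was 2.9-fold lower in the double mutant than in wild type. Any locus at the same level in both thus has a higher ratio in the double mutant. The levels of PAP1 and TT8 in the double mutant overlapped those of wild type, so that the higher ratio there goes with the lower MYBL2.

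**Figure D4:**
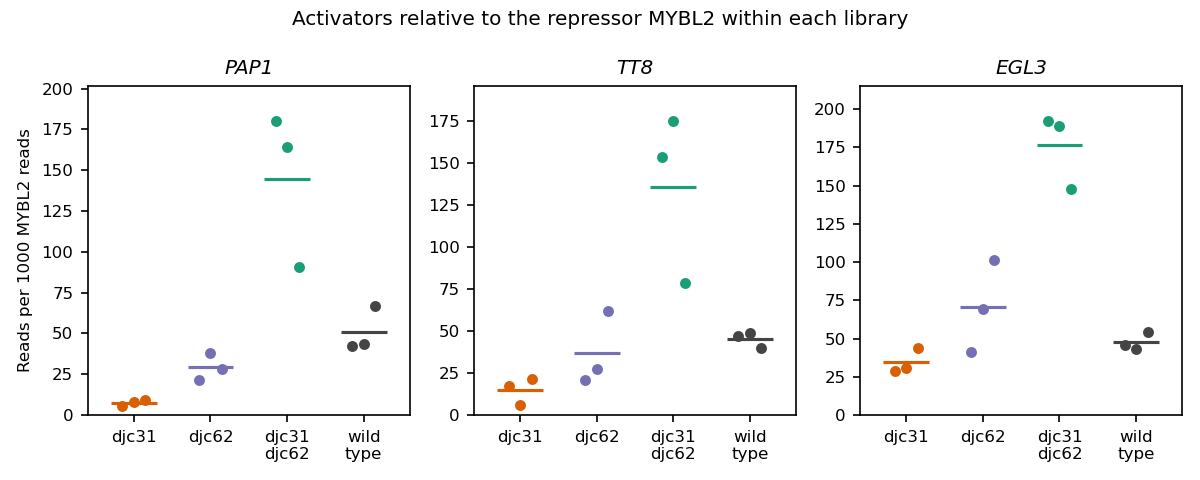
Reads of PAP1, TT8 and EGL3 per 1000 MYBL2 reads in the same library (y axis, linear, from 0) by genotype. Points are libraries and lines are means (n = 3). The double mutant libraries lie highest in each panel, at 90.6 to 180 for PAP1.

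The genes that carry out synthesis were followed as background to the regulators, in lists chosen with results of these data known. Of 15 late genes, for anthocyanins and proanthocyanidins, 12 could be tested. Against wild type, 0 rose and 10 fell in djc31, 0 rose and 7 fell in djc62, and 2 rose and 0 fell in the double mutant, where 27.5%, 26.7% and 29.2% of all loci tested were called. The count in the double mutant was 6 higher on library totals, and 1 higher without wild type replicate 3 or double mutant replicate 1 or 2. The median log2 changes were -1.12, -0.7 and 0.28, beside -0.01, 0 and 0.02 for all loci. SCPL10, an acyltransferase that adds sinapoyl groups to anthocyanins, was at 572.6 ± 27.5 in djc31, 864.2 ± 73.9 in djc62 and 1706 ± 195 in djc31 djc62, against 1810 ± 124 in wild type. It fell in both single mutants (adjusted p = 8.21e-09 in djc31 and 2.1e-06 in djc62). TT19, a glutathione transferase needed to bring anthocyanins to the vacuole, was at 300.4 ± 48.4, 315.3 ± 61.6 and 794.5 ± 173 in djc31, djc62 and the double mutant, against 652.2 ± 60.7 in wild type, and fell in both single mutants (adjusted p = 0.000149 and 0.000286). The acyltransferases 3AT1 and 5MAT fell in djc31 (log2 change -1.34 ± 0.18 and -1.84 ± 0.27 SE, adjusted p = 2.86e-05 and 5.33e-05), and the glucosyltransferase UGT75C1 fell in djc62 (-1.03 ± 0.19 SE, adjusted p = 0.000699). 5MAT was also called lower in djc62 and UGT75C1 in djc31, while 3AT1 was not called in djc62. 5MAT was at 81.7 ± 36.5 in djc31 and 136.2 ± 22.6 in djc62, against 281 ± 40.1 in wild type. UGT75C1 was at 123.1 ± 11.2 in djc31 and 130.9 ± 19.4 in djc62, against 267.6 ± 31.4 in wild type.

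In the double mutant, DFR and AHA10 were the late genes that rose against wild type. DFR, the first enzyme after the branch from flavonols, was at 607.9 ± 74.5 in djc31, 1011 ± 125 in djc62 and 2095 ± 550 in djc31 djc62, against 1244 ± 99.4 in wild type (log2 change in the double mutant 0.72 ± 0.16 SE, adjusted p = 0.0031). AHA10, a proton pump known from seed coat pigmentation, was at 79.9 ± 20.2 in the double mutant and 26.3 ± 14.8 in wild type (1.74 ± 0.5 SE, adjusted p = 0.0152). That call was lost without wild type replicate 3 or double mutant replicate 1 or 2 (adjusted p = 0.0839, 0.0663 and 0.0525). Against djc31, 11 of the 12 late genes rose in the double mutant and 0 fell (31.3% of all loci called, 15.3% higher and 16.0% lower). Against djc62, 8 rose and 0 fell (19.7%, 9.38% higher and 10.4% lower). The non-additive difference was called above for 9 and below for 0 (31.2%, 15.8% above and 15.4% below). It was 3.0 ± 0.35 SE for LDOX (adjusted p = 6.2e-06) and 3.24 ± 0.38 SE for 5MAT (adjusted p = 5.74e-06).

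Of 11 early and flavonol genes, 8 could be tested, and 0 rose and 6 fell in djc31, 0 rose and 1 fell in djc62 and 0 rose and 2 fell in the double mutant against wild type (27.5%, 26.7% and 29.2% of all loci called). The count in the double mutant turned to 3 higher and 1 lower on library totals, with CHS, CHI and UGT78D1 higher, and was 0 without double mutant replicate 3. It was 1 lower without either other double mutant library or any 1 wild-type library, with the replicate block, and with no filter or a stricter one. The median log2 changes of these genes were -0.78, -0.26 and 0, beside -0.01, 0 and 0.02 for all loci. CHS, chalcone synthase at the entry to the pathway, was at 3472 ± 713 in djc31, 4843 ± 631 in djc62 and 6161 ± 842 in djc31 djc62, against 5900 ± 925 in wild type, and fell in djc31 (log2 change -0.77 ± 0.15 SE, adjusted p = 0.00102). The flavonoid 3'-hydroxylase gene TT7 was the early gene that fell in both single mutants, at 106 ± 6.51 in djc31, 133 ± 24.6 in djc62 and 339.6 ± 107 in djc31 djc62, against 318.9 ± 8.09 in wild type (F3PRIMEH, AT5G07990; adjusted p = 2.66e-05 in djc31 and 0.000265 in djc62). FLS1, flavonol synthase, took another course, at 297 ± 24 in djc31, 628.5 ± 114 in djc62 and 379.4 ± 32.3 in djc31 djc62, against 515.1 ± 82.3 in wild type. It fell in djc31 (adjusted p = 0.000874) and in the double mutant (-0.43 ± 0.15 SE, adjusted p = 0.0413). The second call was lost on library totals (adjusted p = 0.387), without the filter (0.0543) and without wild type replicate 1 or 3 or any 1 double mutant library (0.0528 to 0.182). In djc62 it was not called against wild type (0.28 ± 0.15 SE, adjusted p = 0.186), and it was higher there than in djc31 (1.07 ± 0.15 SE, adjusted p = 0.000394), while the double mutant was lower than djc62 (-0.72 ± 0.15 SE, adjusted p = 0.00313). MYB111, an activator of FLS1, was at 63.9 ± 30.8 in djc31, 87.2 ± 24.3 in djc62 and 76.5 ± 5.82 in djc31 djc62, against 38 ± 3.6 in wild type, and its difference in djc31 was not called. UGT84A1, which transfers glucose to hydroxycinnamic acids, fell in the double mutant (-2.07 ± 0.62 SE, adjusted p = 0.0189), though not without wild type replicate 2 or double mutant replicate 3 (adjusted p = 0.0633 and 0.0968). It reached at most 8.68 in a double mutant library and passed the filter on low values only through libraries of the other genotypes. Its fall, though counted above, is therefore given as a description. UGT84A1, UGT75C1, TT19 and BBX32 overlap other genes with reads of their own, which averaged 463.8, 292.6, 9571 and 371.4 over the 12 libraries, so their values may hold or lose reads of the neighbour. F3H, the enzyme between chalcone isomerase and DFR, is listed at or near 0 in every genotype, in a plant that expresses the enzymes on either side, and was not used.

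**Figure D5:**
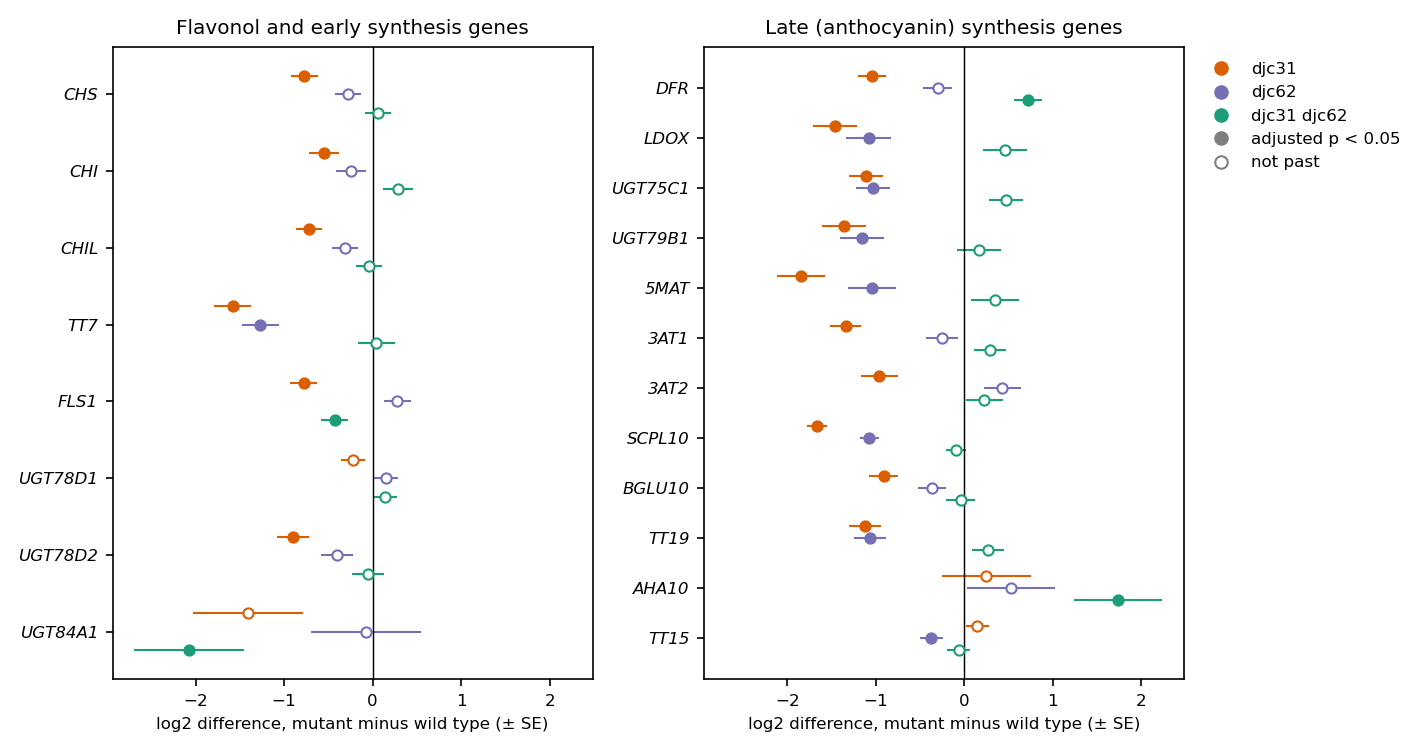
Log2 difference from wild type (x axis, mutant minus wild type, ± SE) of the tested early and flavonol genes and of the tested late genes, for djc31, djc62 and the double mutant from top to bottom. Filled points have an adjusted p under 0.05. In djc31 10 of 12 late genes fell, whereas in the double mutant DFR and AHA10 rose and 0 fell.

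TAS4, a locus whose small RNAs cut the messages of PAP1, PAP2 and MYB113, had 0 reads in each djc31 library, 0, 3 and 2 reads in djc62, 16, 6 and 18 in the double mutant and 4, 16 and 16 in wild type. With 3 reads allowed over its libraries, djc31 was at least 9.33-fold lower than wild type and at least 8.68-fold lower than the double mutant. The fall in djc31 against wild type (adjusted p = 0.00854) and the difference between the double mutant and djc31 (adjusted p = 0.00881) were called, and that between djc62 and wild type was not (log2 difference -2.42, adjusted p = 0.0594). TAS4 passed the filter on low values only through libraries of wild type and the double mutant, where it was high. These tests are therefore given as a description. TAS4 thus had no read in djc31, the genotype in which its target PAP1 was also lowest. The microRNA loci MIR828A and MIR858A were not analysed here.

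Of 6 other MYB genes of the pathway, 3 could be tested. MYB4, a repressor of phenylpropanoid genes, was at 368.3 ± 31.6 in djc31, 381.1 ± 5.47 in djc62 and 404.5 ± 43.6 in djc31 djc62, against 283.1 ± 11.1 in wild type. It rose in each (log2 changes 0.38, 0.43 and 0.51 ± 0.13 SE, adjusted p = 0.0414, 0.0221 and 0.00773), though in djc31 it was not called on library totals (0.24, adjusted p = 0.243), in a fit of those genotypes alone (0.137) or without any of 8 libraries (0.0543 to 0.113). In djc62 it was not called without wild type replicate 1 or 2 or djc62 replicate 2 or 3 (adjusted p = 0.0553 to 0.071). TT2, the seed coat partner of TT8, had 0 reads in all 12 libraries. Of 3 seed coat regulators, only TTG2, which also acts in leaf hairs, could be tested, and it fell in djc31 (-0.67 ± 0.21 SE, adjusted p = 0.0261), though not in a fit of those genotypes alone (0.093) or without wild type replicate 1 or 3 or djc31 replicate 3 (0.0845, 0.079 and 0.0721). Seed coat and seed markers summed to at most 4.46 in any library, with CRU3 at 0 throughout.

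The upstream factors moved in both directions. Of 17 light and other upstream genes, 4 rose and 6 fell in djc31, 2 rose and 8 fell in djc62 and 1 rose and 6 fell in the double mutant against wild type, where 27.5%, 26.7% and 29.2% of all loci were called. The median log2 changes were -0.34, -0.32 and -0.23, beside -0.01, 0 and 0.02 for all loci. On library totals the counts were 4 higher and 9 lower in djc31, 2 and 6 in djc62, and 3 and 3 in the double mutant, and without wild type replicate 3 or djc62 replicate 3 only 4 fell in djc62. HYH, a bZIP factor of light signalling and relative of HY5, was at 246 ± 27 in djc31, 661.4 ± 85.5 in djc62 and 378 ± 29.9 in djc31 djc62, against 975.9 ± 197 in wild type. It fell in each (adjusted p = 4.97e-08, 0.013 and 5.81e-06), in djc62 not without wild type replicate 3 or djc62 replicate 1 (0.0773 and 0.0624). HY5 was at 177.9 ± 31.4 in djc31 and 161.3 ± 39 in djc62. In djc31 djc62 it was at 208.3 ± 16.4, and in wild type at 284 ± 52.2. Both single mutants were called lower than wild type for HY5, and the double mutant was not. The call in djc31 was lost without wild type replicate 3 or djc31 replicate 2 or 3 (adjusted p = 0.0893, 0.0566 and 0.0661). BBX32, a B-box protein of light signalling, was at 25.7 ± 12.2, 35.3 ± 5.28 and 85.7 ± 6.23 in djc31, djc62 and the double mutant, against 164 ± 65.8 in wild type. It fell in both single mutants (adjusted p = 1.86e-05 and 0.000214) and, like PAP1 and TT8, was higher in the double mutant than in each (adjusted p = 0.00107 against djc31 and 0.0172 against djc62). The last call was lost without djc62 replicate 1 or double mutant replicate 1 or 3 (adjusted p = 0.0613, 0.0659 and 0.0522). BBX21, a partner of HY5, rose in all 3 mutants (log2 changes 0.92, 0.72 and 1.05 ± 0.13 SE, adjusted p = 4.98e-05, 0.000546 and 1.73e-05). BBX20, another B-box protein of light signalling, rose in djc31 and djc62 (1.89 and 1.68 ± 0.37 SE, adjusted p = 0.00093 and 0.00261), and BBX22 and the gibberellin repressor GAI rose in djc31 (0.73 ± 0.14 and 0.52 ± 0.11 SE, adjusted p = 0.000965 and 0.00175). BBX24, a B-box repressor of anthocyanin synthesis, fell in djc62 (-0.59 ± 0.13 SE, adjusted p = 0.00185) and was also called lower in the double mutant. It was at 4745 ± 486 in djc62 and 4291 ± 125 in djc31 djc62, against 7161 ± 774 in wild type. LBD38, which represses anthocyanin synthesis when nitrate is plentiful, was at 886.3 ± 106 in the double mutant and 2107 ± 35.2 in wild type (-1.26 ± 0.14 SE, adjusted p = 3.47e-06).

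Of 4 F-box genes whose proteins mark CHS or phenylalanine ammonia lyase for breakdown, 3 could be tested. KFB20 was at 1513 ± 187 in djc31, 758.7 ± 136 in djc62 and 1740 ± 180 in djc31 djc62, against 2997 ± 183 in wild type, and fell in each (adjusted p = 2.49e-05, 6.45e-09 and 0.0003). KFBCHS, which acts on CHS, fell in djc62 and in the double mutant (log2 change -1.19 and -0.92 ± 0.17 SE, adjusted p = 4.37e-05 and 0.000573). KFB01 rose in djc31 and djc62 (1.08 and 1.03 ± 0.2 SE, adjusted p = 0.000656 and 0.00109).

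Of 9 leaf hair genes that work with GL3, EGL3 and TTG1, 1 rose and 1 fell in djc31, 1 rose and 2 fell in djc62 and 0 rose and 4 fell in the double mutant against wild type (27.5%, 26.7% and 29.2% of all loci called). On library totals, or without double mutant replicate 2, the last count was 2 lower. TRY, a small MYB that suppresses hairs in neighbouring cells, was at 45.1, 19.3 and 33 in the djc31 libraries, 30.3, 72.1 and 48.5 in djc62, 29.5, 26.8 and 8.37 in the double mutant and 147.4, 116.5 and 223.8 in wild type. It fell in each mutant (log2 changes -2.31, -1.7 and -2.98 ± 0.46 SE, adjusted p = 0.000991, 0.0102 and 0.000121), in djc62 not without wild type replicate 3 or djc62 replicate 1 (0.0516 and 0.0518). GL1, the MYB partner of GL3 in hairs, was at 47.9 ± 8.62 in djc31, 52.3 ± 3.68 in djc62 and 19.2 ± 7.54 in djc31 djc62, against 19.8 ± 2.2 in wild type, and rose in both single mutants (adjusted p = 0.0145 and 0.00775). MYB23, a close relative of GL1, was at 39.5 ± 7.94 in the double mutant and 105.1 ± 18.4 in wild type and fell there (-1.39 ± 0.27 SE, adjusted p = 0.00087), and ETC2, another hair suppressor, fell in djc62 and the double mutant (adjusted p = 0.0032 and 0.0149). In the double mutant ETC2 was not called on library totals (0.0568) or without wild type replicate 3 or double mutant replicate 1 or 2 (0.0715, 0.0699 and 0.0591). The fourth to fall there was ETC1, of the same family (-1.19 ± 0.41 SE, adjusted p = 0.0366), a call lost on library totals (0.082), without the filter (0.078) and without wild type replicate 1 or 2 or double mutant replicate 2 or 3 (0.0708 to 0.168). As markers of hairs, GL1, MYB23 and TRY summed to 124.6 to 213.8 in djc31, 185.2 to 236.5 in djc62 and 64.4 to 97.5 in the double mutant, against 261.9 to 328.1 in wild type. These genes did not move together. In the single mutants TRY, the suppressor of hairs, was the one that fell, while GL1 rose and MYB23 was not called, at 100.2 ± 30.2 in djc31 and 104 ± 9.94 in djc62. GL2, a factor that acts after the complex in hairs, was at 202.7 ± 36.4 in djc31, 211.8 ± 47.4 in djc62 and 127.3 ± 22.7 in djc31 djc62, against 161.9 ± 34.8 in wild type, with no call against wild type. In the double mutant GL1, MYB23 and GL2 were called lower than in djc31 and in djc62, and 0 of the 9 higher (31.3% and 19.7% of all loci called). The same 3 were called below in the non-additive difference (31.2%). Among other settings, the GL2 calls were lost on library totals (adjusted p = 0.404, 0.164 and 0.144), as was the non-additive call of MYB23 (0.079). The part of the hair genes in the values of GL3, EGL3 and TTG1 was not tested.

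Markers of other tissues differed between genotypes in part. The 3 epidermis markers, for the layer in which leaf flavonoids accumulate, summed to 10670 to 12080 in djc31, 12680 to 13800 in djc62 and 11320 to 12860 in the double mutant, against 10230 to 11650 in wild type. Against wild type only FDH in djc62 was called among these (log2 change 0.42 ± 0.1 SE, adjusted p = 0.00558). Between mutants, FDH was called higher in djc62 than in djc31, and ATML1 higher in the double mutant than in djc31. The 2 green leaf markers, RBCS1A and LHCB1.3, summed to 1472000 to 2184000 in djc31, 997800 to 1240000 in djc62 and 793000 to 884900 in the double mutant, against 1211000 to 1544000 in wild type. LHCB1.3 rose in djc31 (0.73 ± 0.23 SE, adjusted p = 0.0262) and RBCS1A fell in the double mutant (-0.79 ± 0.23 SE, adjusted p = 0.0173), and each call was lost without the filter (adjusted p = 0.388 and 0.309). The first was also lost with the replicate block (0.0707), in a fit of those genotypes alone (0.167) and without wild type replicate 1 or 2 or djc31 replicate 1 or 2 (0.0602 to 0.115), and the second without wild type replicate 3 or double mutant replicate 1 or 2 (0.0592 to 0.0779). The 3 guard cell markers summed to 982.2 to 1529 in djc31, 1380 to 1640 in djc62 and 974 to 1092 in the double mutant, against 1359 to 1569 in wild type. MYB60 and KAT1 fell in the double mutant (-0.84 ± 0.15 and -0.69 ± 0.18 SE, adjusted p = 0.000355 and 0.00938), KAT1 not on library totals (0.15) or without double mutant replicate 3 (0.0576), and FAMA was not called.

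Of the 5 root markers only PYK10 could be tested, and it makes up nearly all of their sum. It was at 1911 ± 290 in djc31, 2423 ± 189 in djc62 and 4293 ± 333 in djc31 djc62, against 1422 ± 154 in wild type, and rose in each (adjusted p = 0.0157, 0.000143 and 4.95e-08), in djc31 not on library totals (0.0916), in a fit of those genotypes alone (0.0597) or without wild type replicate 3 or djc31 replicate 2 (0.0676 and 0.0815). IRT1, COBL9, EXPA7 and MYB36 averaged at most 7.31 in any genotype, and COBL9 was at 0.442 in djc31, 2.93 in djc62 and 4.34 in djc31 djc62, against 5.32 in wild type. The 3 flower markers summed to at most 7.7 in every mutant library, against 20.9 to 26.4 in wild type. The part of tissue composition in the levels of the regulators was not tested.

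The tested loci whose log2 values were most like those of a regulator called against wild type over the 12 libraries were taken as the 3 with the highest Pearson correlation. The 12 libraries fall into 4 genotypes, so these are descriptions. For PAP1 they were AT1G50180 (r = 0.97), CBSX6 (0.967) and AT2G41190 (0.962), and for TT8 they were PSAT1 (0.966), ALE2 (0.96) and ASG4 (0.953). ASG4 was at 13.8 ± 10.4 in djc31, 19.2 ± 6.55 in djc62 and 75.5 ± 24.9 in djc31 djc62, against 152.5 ± 79 in wild type. For MYBL2 they were AT4G26860 (0.97), NDF5 (0.97) and AT3G10060 (0.968), for TTG1 TUB5 (0.949), HMGB2 (0.947) and AT3G17020 (0.945), and for MYB111 AT2G28570 (0.935), ASP2 (0.931) and AT5G41835 (0.931). Among the pathway genes, SCPL10 ranked 10 of all loci in likeness to PAP1 (r = 0.95), and TT7 ranked 15 in likeness to TT8 (r = 0.937).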

How the data were processed

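Each locus of the deposited table has 1 normalised signal per library, which the authors made from gene counts. The submitters' processing notes name Trimmomatic, FastQC, featureCounts and the build TAIR10, without versions, aligner, strand setting or the handling of reads that match several places. Reads of overlapping genes and near-identical copies may therefore be split or shared. Divided by what 1 read is worth in its library, 100% of the values came out as whole reads (tolerance 0.01), with size factors of 0.4655 to 1.3439 and totals of 13.6 to 31.1 M reads (median 25.8 M). A value of 0 allows up to 3 reads, which covers counting error only.

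The main test was limma 3.58.1 in R 4.3.3, run on log2(value + 1) with its trend option. The 12 libraries entered 1 fit with a mean for each genotype and 8 residual degrees of freedom. Of all loci, 19975 reached 10 in 3 or more libraries and were tested, and 16942 did not. Benjamini-Hochberg adjustment ran within each of 7 comparisons. The edgeR 4.0.16 quasi-likelihood test on the recovered reads called 5423, 5498, 6006, 6223, 4181, 2790 and 6264 loci in djc31, djc62 and the double mutant against wild type, then in the double mutant against djc31 and against djc62, in djc62 against djc31, and for the non-additive difference, where limma called 5489, 5326, 5839, 6255, 3942, 2749 and 6236. The other alternatives were DESeq2 1.42.0, other pseudocounts and filters, scaling to library totals, fits to fewer libraries and a replicate block.

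The members, the 8 lists of 68 pathway loci and the tests were chosen with earlier results of these data known. Named were all members, the up to 3 genes of lowest adjusted p per list and comparison against wild type, genes behind counts of 5 or fewer, both target genes, LHY and PRR5, and the 3 loci most like each member called against wild type. LDOX, HY5, MYB113, MYB114, TT2, F3H and the tissue markers were added outside this rule, as were CHS, 5MAT, UGT75C1, BBX24 and LBD38 in other genotypes. RefSeq annotation (TAIR10.1) gave symbols and overlapping genes only.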

Additional observations from a re-analysis of the deposited data

Results flagged for a closer look

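For 4 regulators the change that djc62 brings differed with the genotype at DJC31, by the test of the non-additive log2 difference in limma. The same test called 31.2% of all loci. PAP1 had 4.85 (adjusted p = 1.68e-06), TT8 3.61 (adjusted p = 0.000109) and EGL3 1.8 (adjusted p = 0.00213). In these genes djc62 was lower than wild type in 3 of 3 libraries, and the double mutant was higher than djc31 in 3 of 3. Such separation was common. Over all loci, libraries did not overlap for 41.6% in djc62 against wild type and for 45.4% in the double mutant against djc31. TTG1 had -0.47 (adjusted p = 0.0291), a value that depended on the scaling.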

How the results depend on the processing

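Of 22 calls on regulators, 15 held in every alternative tried: PAP1 in 5 comparisons, TT8 in djc31 and djc62 against wild type, the double mutant against djc31 and the non-additive difference, EGL3 in the last 2 of these, and MYBL2 in 4. The number of regulators called in djc62 against djc31 was 1, and 2 on library totals and 2 with DESeq2. Leaving out 1 library at a time, it was 1 to 2, and 1 to 2 in the double mutant against wild type, 2 to 5 against djc62, 4 to 5 against djc31, 3 to 4 in djc31 and 3 to 5 in djc62 against wild type, and 3 to 4 for the non-additive difference.

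Scaling to library totals shifted the median log2 change of all loci by -0.13, 0.07, 0.27, 0.40, 0.19, 0.20 and 0.33 in the 7 comparisons, listed as in the methods, and the split of called loci to 1710 higher and 3625 lower, 3018 and 1997, 5804 and 1432, 8507 and 852, 3147 and 899, 3358 and 442, and 4935 and 1441, where the main split was 2655 and 2834, 2727 and 2599, 2748 and 3091, 3057 and 3198, 1874 and 2068, 1581 and 1168, and 3158 and 3078. Differences that changed sign on library totals, all from values not called in the main fit, were those of the double mutant from wild type in PAP1 (0.21) and TT8 (0.24), from djc31 in GL3 (0.29) and TTG1 (0.12), from djc62 in MYB111 (0.04) and TTG1 (0.16), and the non-additive difference of MYBL2 (0.26). Called falls of LBD37, LBD39 and GAI in the double mutant against djc31 turned to 0.06, 0.05 and 0.01. MYB12 in the double mutant against djc31 was -0.02 with a pseudocount of 5, -0.20 with edgeR and -0.20 with DESeq2, and TT8 against wild type 0.02 with edgeR and 0.01 with DESeq2. The cause of the other changes was not tested.

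Leaving out 1 library also turned values that were not called. The ranges were -0.25 to 0.25 for PAP1, -0.19 to 0.22 for TT8 and -0.12 to 0.48 for GL3 in the double mutant against wild type, -0.41 to 0.46 for MYB12 and -0.47 to 0.34 for GL3 against djc31, -0.31 to 0.06 for MYB111 and -0.10 to 0.03 for TTG1 against djc62, -0.05 to 0.82 for MYB12 and -0.08 to 0.64 for GL3 in djc31 against wild type, -0.14 to 0.68 for TT8 and -0.15 to 0.34 for EGL3 in djc62 against djc31, and -0.21 to 0.06 for MYBL2 in the non-additive difference. The number of all loci called in djc62 against djc31 was 2749, and 1093 in a fit of those genotypes alone, 1112 without djc62 replicate 3 and 1518 without djc62 replicate 2. It was 6255 and 4073 for the double mutant against djc31 without double mutant replicate 2, and 3942 against djc62, 2375 without double mutant replicate 1 and 2402 without replicate 2. Of 179 calls on pathway genes, 128 held throughout. Over the alternatives, 10 late genes fell in djc31 in each, 6 to 7 fell in djc62, and 1 to 6 rose in the double mutant against wild type.

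Same-numbered libraries of different genotypes did not deviate together (correlations -0.151 to 0.106 over 18 pairs, 1 over 0.1, and 0 of 12 libraries closest to their own number). With the replicate block, 4, 5, 2, 4, 3, 1 and 4 regulators were called in the 7 comparisons. The block added EGL3 in djc31 (adjusted p = 0.0486) and GL3 in djc62 (adjusted p = 0.0479) against wild type and lost MYB12 in the double mutant against djc62 (adjusted p = 0.0653).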
